A study of Picea abies with 48 samples.

Results

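*PaERF115-like* (MA_10274g0010) and *PaPAT1-like* (MA_10426489g0020) are 2 transcription factor genes of Norway spruce (*Picea abies*), and their messenger RNA was followed here through the healing of a graft. Both were chosen by their identifiers, and they are 2 of the 70736 gene models in the table of counts and 2 of the 38436 models with enough reads to be tested. RNA was sequenced from hypocotyls, the stem below the seed leaves, of wild-type FP-96 Skogsgård seedlings. Plants were either left intact (ungrafted) and sampled at day 0 and on the days that grafted plants were (1, 3, 7, 14 and 28 DAG, for days after grafting), or cut through the hypocotyl and rejoined, with the upper piece (scion) and the lower piece (rootstock) taken from different plants. Scion and rootstock were sampled separately at 1, 3, 7, 14 and 28 DAG, each as a piece of about 1 mm beside the junction, while intact pieces were about 2 mm long. These make 16 groups (6 intact, 5 scion and 5 rootstock), each with 3 replicates of 5 pooled plants, so that the spread between replicates is a spread between pools. Intact plants were not cut, and a cut that was not rejoined is not among the groups, so the response to wounding and the response to grafting cannot be told apart.

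ERF115 belongs to the AP2/ERF transcription factors, a plant family with many members that answer to ethylene, wounding and stress. PAT1 belongs to the GRAS family, named after GAI, RGA and SCARECROW, whose proteins often act in complexes with other transcription factors. In *Arabidopsis*, ERF115 is switched on beside damaged cells and binds PAT1, and the complex drives the divisions that replace lost stem cells and promotes callus, the loosely organised tissue that closes wounds. The name *PaERF115-like* is the study's own. The annotation in its supplementary tables describes the protein of MA_10274g0010 as ethylene-responsive transcription factor ERF114-like, a relative of ERF115 in *Arabidopsis*, and that of MA_10426489g0020 as scarecrow-like transcription factor PAT1. The same tables pair MA_10274g0010 with the *Arabidopsis* locus AT5G13330, which is the locus of neither ERF114 nor ERF115, so which *Arabidopsis* gene it corresponds to is not settled here.

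The study amplified the reading frames of both genes from spruce cDNA, and the primers are shown because they are the sequences that tie the names to the transcripts. They are printed 5′ to 3′ without the recombination tails used for cloning, with the start codon of each reading frame in capitals. The forward primers read the coding strand, and the reverse primers read the opposite strand at the end of the reading frame.
*PaERF115-like* forward: ATGgcgagcaagacagatc
*PaERF115-like* reverse: aagatctgggcagtgccaa
*PaPAT1-like* forward: ATGaatgtgcagttcaagac
*PaPAT1-like* reverse: ctgccaggcacaagct

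The libraries held 11511598 to 27687377 counted reads (median 18054427), with medians of 17241821 in intact, 18670129 in scion and 19276336 in rootstock libraries. Values below are normalized reads, that is counts divided by a size factor for each library (0.611 to 1.52). Replicates correlated at 0.962 or higher on the scale of log2(normalized reads + 1). In whole tissue pieces, fewer cells of a type and less RNA per cell cannot be told apart.

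*PaERF115-like* was close to silent in intact hypocotyls and strongly expressed in every scion and rootstock library. The 18 intact libraries held 0 to 9 reads of the gene each, 30 in all, and 5 of them held no read. The 3 intact libraries of day 0 held 1, 1 and 3 reads, those of 1 DAG 0, 2 and 3, and those of 3 DAG 1, 0 and 1. At 7 DAG the intact libraries held 0, 0 and 1 reads, at 14 DAG 2, 1 and 0, and at 28 DAG 9, 1 and 4. A count of 0 still allows an expectation of up to 3 reads in a library, so expression in intact tissue was near the limit of what this depth could detect. Intervals and limits of this kind cover counting error only.

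In scion the gene was high in every library from the first day. The 3 scion libraries held 259, 377 and 438 normalized reads at 1 DAG, 324, 368 and 386 at 3 DAG, followed by 363, 368 and 367 at 7 DAG. They held 346, 359.9 and 434 at 14 DAG, followed by 267, 264 and 307.8 at 28 DAG. The lowest of the 15 scion libraries, at 259, stood far above the highest intact library, at 9.09, and the day groups of the scion overlapped one another at every step from 1 to 14 DAG.

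The rootstock behaved alike in range and was spread more between days. Its libraries held 283, 454 and 466 normalized reads at 1 DAG, 402, 343 and 317 at 3 DAG, followed by 407, 444 and 459 at 7 DAG. They held 543, 420.1 and 599 at 14 DAG, followed by 402, 315 and 327 at 28 DAG. The highest group mean of the whole series was rootstock at 14 DAG, 521 ± 91.5 normalized reads (SD, n = 3), and the highest scion mean fell on the same day, 379.9 ± 47.2.

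**Figure D1:**
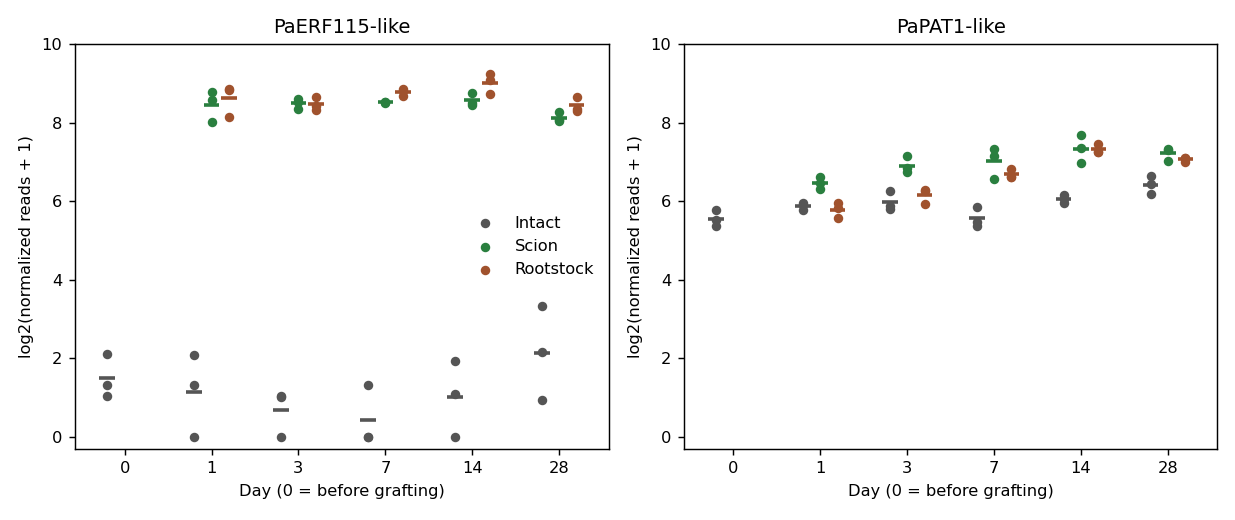
Level of *PaERF115-like* (left) and *PaPAT1-like* (right) in each library, as log2(normalized reads + 1), by day (evenly spaced) and tissue; points are single libraries and bars the mean of 3 replicates. *PaERF115-like* separates all 30 grafted from all 18 intact libraries, while *PaPAT1-like* is present in every library and parts from the intact level earlier in scion than in rootstock. How many of all genes separate likewise was not counted.

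Because intact tissue held so few reads, the size of the difference is known only roughly on the days with the fewest. The ratio of normalized reads between scion and intact was 242 at 1 DAG, with an exact 95% counting interval of 104 to 748, and 64.2 (38.1 to 118) at 28 DAG, where the intact libraries held 14 reads. At 3, 7 and 14 DAG the intact libraries held 2, 1 and 3 reads, and the scion ratios were 455 (126 to 3762), 760.4 (136 to 30057) and 303 (103 to 1469). The lower bounds at 1, 3, 7 and 14 DAG were 103 or more, while that at 28 DAG was 38.1. For rootstock the ratios were 275 (118 to 849.7) at 1 DAG, 447 (123 to 3695) at 3 DAG, 899 (161 to 35526) at 7 DAG, 418 (143 to 2028) at 14 DAG and 79.8 (47.3 to 146) at 28 DAG.

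Each of these 10 differences was tested with edgeR's quasi-likelihood test, and a gene was called at a Benjamini-Hochberg adjusted p under 0.05 together with a log2 fold change above 1 or below -1. *PaERF115-like* was called higher in 10 of 10 comparisons, as were 336 genes (0.874% of those tested). The fitted log2 fold changes of scion against intact were 7.79, 8.66, 9.28, 8.16 and 5.98 at 1, 3, 7, 14 and 28 DAG, with adjusted p values between 4.03e-20 and 1.07e-16. Those of rootstock against intact were 7.94, 8.62, 9.52, 8.61 and 6.29, with adjusted p values between 6.51e-21 and 1.54e-17. Among the 38436 genes tested, the fold change ranked 4th from the top in rootstock at 7 DAG, and between 16th and 173rd in the other 9 comparisons. The fitted values depend on how the model treats counts near 0 and on single intact libraries. Without replicate 3 of intact at 7 DAG, which held the only read of its group, they were 11.59 in scion and 11.82 in rootstock. They were 8.57 and 8.72 without replicate 3 of intact at 1 DAG, 9.12 and 9.57 without replicate 1 of intact at 14 DAG, and 6.91 and 7.22 without replicate 1 of intact at 28 DAG, which held 9 of the 14 reads. The lowest values with a library left out were 7.22, 8.30, 8.77, 7.59 and 5.50 in scion from 1 to 28 DAG. In rootstock the lowest values were 7.38, 8.27, 9.01, 8.04 and 5.81. The gene was called in each of these fits, while the intervals of the read ratios do not cover this spread between libraries.

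Many genes were higher after grafting, and the count for *PaERF115-like* is read against them. Of all genes tested, 11.4%, 9.82%, 10.8%, 11% and 7.86% were called higher in scion than in intact at 1, 3, 7, 14 and 28 DAG. In rootstock the shares were 13.8%, 9.56%, 7.55%, 9.31% and 7.27%. The shares called lower were 11.3%, 7.56%, 7.23%, 7.47% and 2.95% in scion and 16.5%, 10.1%, 3.93%, 4.77% and 1.96% in rootstock. The 10 comparisons share the intact libraries of a day between scion and rootstock, so they are not 10 separate pieces of evidence.

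*PaPAT1-like* was already present in intact hypocotyls, and the largest of its fitted differences after grafting was 2.92-fold. Its 18 intact libraries held 29 to 99 counted reads each. The intact libraries of day 0 held 45.2, 53.5 and 40.2 normalized reads, those of 1 DAG 53.9, 58.9 and 61.0, and those of 3 DAG 58.2, 75.2 and 54.7. Those of 7 DAG held 57.0, 40 and 43.5, those of 14 DAG 69.8, 61.2 and 65.3, and those of 28 DAG 98.0, 71.9 and 86.1. The intact level was thus highest on the last day sampled, and its 3 libraries all stood above the 3 of day 0.

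In scion *PaPAT1-like* stood above intact tissue of the same day in every library. The scion libraries held 96.8, 87.9 and 78.9 normalized reads at 1 DAG, 141, 113 and 106 at 3 DAG, followed by 94.0, 142 and 160.4 at 7 DAG. They held 125, 204 and 164 at 14 DAG, followed by 156, 129 and 161 at 28 DAG. No scion group overlapped the intact group of its day, although the spread between scion replicates was wide at 7 DAG (132 ± 34.3) and 14 DAG (164 ± 39.4, SD, n = 3). The share of all genes that separate in this way was not counted, here or for the separations of groups given above and below.

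In rootstock the gene began at the intact level. The rootstock libraries held 46.7, 61.1 and 55.4 normalized reads at 1 DAG, followed by 77.0, 59.5 and 75.1 at 3 DAG, and both groups overlapped the intact libraries of their day. They held 96.7, 112 and 97.0 at 7 DAG, 173, 151 and 152 at 14 DAG, followed by 136, 137 and 127 at 28 DAG. From 7 DAG onward each rootstock library was above each intact library of its day.

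The tests followed the same order, and a fitted log2 value is given below with its standard error after ±. In scion, the log2 fold change of *PaPAT1-like* against intact was 0.58 ± 0.18 (adjusted p = 0.00568) at 1 DAG, 0.99 ± 0.18 (adjusted p = 1.62e-05) at 3 DAG and 1.54 ± 0.19 (adjusted p = 7.66e-09) at 7 DAG. It was 1.37 ± 0.18 (adjusted p = 2.26e-08) at 14 DAG and 0.80 ± 0.17 (adjusted p = 2.08e-04) at 28 DAG. All 5 passed the adjusted p, and the differences at 7 and 14 DAG passed the fold threshold too. The value at 3 DAG lay just under the fold threshold and was called at 1.15 with library size as the only scaling, at 1.01 without the filter on low counts and at 1.06 with all libraries thinned to the smallest total. It was also called without replicate 2 of the intact group (1.12) and without replicate 2 or replicate 3 of the scion group (1.03 and 1.07).

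Rootstock differed from intact by -0.12 ± 0.19 (adjusted p = 0.62) at 1 DAG and 0.23 ± 0.19 (adjusted p = 0.339) at 3 DAG, and neither passed the test. It was 1.14 ± 0.19 (adjusted p = 9.16e-06) at 7 DAG and 1.31 ± 0.18 (adjusted p = 9.9e-08) at 14 DAG, both called, and 0.65 ± 0.17 (adjusted p = 0.00334) at 28 DAG, below the fold threshold. *PaPAT1-like* was therefore called higher in 4 of 10 comparisons, as 10.9% of all genes were in 4 or more. By the adjusted p alone it was higher in 8 of 10, and 7.7% of all genes were higher by that rule in 8 or more.

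**Figure D2:**
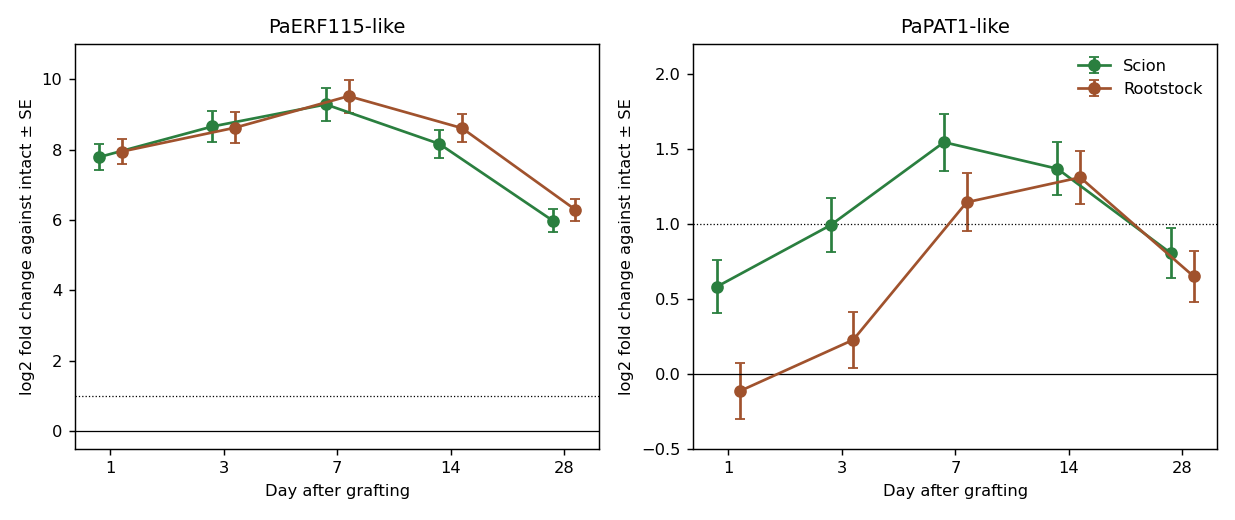
Fitted log2 fold change of grafted against intact tissue of the same day, with its standard error, for *PaERF115-like* (left) and *PaPAT1-like* (right); the dotted line marks the threshold of 1, and the vertical scales differ. *PaERF115-like* is called on every day and lowest at 28 DAG (5.98 in scion and 6.29 in rootstock), while *PaPAT1-like* in rootstock is at -0.12 at 1 DAG and 1.31 at 14 DAG.

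Set directly against each other, scion and rootstock differed in *PaPAT1-like* on the first days. Scion was higher than rootstock by 0.70 ± 0.18 on the log2 scale (adjusted p = 0.00273) at 1 DAG and by 0.76 ± 0.17 (adjusted p = 5.15e-04) at 3 DAG, and the 3 scion libraries stood above the 3 rootstock libraries on both days. Both differences were below the fold threshold. The log2 difference at 7 DAG was 0.40 (adjusted p = 0.06), and it passed with library size as the only scaling (0.58, adjusted p = 0.00465) and without replicate 1 of scion (0.53, adjusted p = 0.0117). It was 0.06 (adjusted p = 0.898) at 14 DAG and 0.15 (adjusted p = 0.867) at 28 DAG. By the adjusted p alone, 24.9%, 29.9%, 28.5%, 8.79% and 0.447% of all genes differed between scion and rootstock at 1, 3, 7, 14 and 28 DAG, so differences were common at 1 and 3 DAG, where that of *PaPAT1-like* passed.

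*PaERF115-like* showed no difference between the sides that passed the test across groups. The log2 difference of scion from rootstock was -0.16 ± 0.18 (adjusted p = 0.585), 0.03 ± 0.18 (adjusted p = 0.919), -0.24 ± 0.17 (adjusted p = 0.346), -0.45 ± 0.18 (adjusted p = 0.12) and -0.31 ± 0.18 (adjusted p = 0.639) from 1 to 28 DAG. A fit of the 2 groups alone gave -0.26 (adjusted p = 0.0303) at 7 DAG. At 7, 14 and 28 DAG, scion and rootstock libraries of the same replicate number deviated together, with each pair's correlation above 0.1. Another fit took the scion and rootstock libraries alone, with the replicate as a block within each day. In it rootstock was higher than scion at 7 DAG (log2 difference -0.29 ± 0.10, adjusted p = 0.0343) and at 14 DAG (-0.43 ± 0.10, adjusted p = 0.00556). The difference at 28 DAG (-0.30 ± 0.11, adjusted p = 0.185) did not pass. Leaving out the intact libraries and adding the block were not tested apart. The standard error in this fit was also 0.10 at 1 DAG and 0.11 at 3 DAG, where same-number pairs were not all above 0.1. By the adjusted p alone, 31.1%, 11.8% and 2.16% of all genes differed between the sides in this blocked fit at 7, 14 and 28 DAG.

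Within a tissue, the steps that passed the adjusted p fell on different days for the 2 genes. The steps of both genes were not tested against each other. *PaPAT1-like* rose in scion from 1 to 3 DAG by 0.50 ± 0.17 on the log2 scale (adjusted p = 0.0193), and in rootstock from 3 to 7 DAG by 0.51 ± 0.17 (adjusted p = 0.0279) and from 7 to 14 DAG by 0.66 ± 0.16 (adjusted p = 0.00327). The other 5 steps of *PaPAT1-like* lay between -0.26 and 0.43 with adjusted p values of 0.0514 or more. Of these, the rootstock step from 1 to 3 DAG passed with library size as the only scaling (0.53, adjusted p = 0.0178), without the filter on low counts (adjusted p = 0.0432), with the filter of 1 CPM in 6 libraries (adjusted p = 0.0479) and without replicate 2 of rootstock at 1 DAG (adjusted p = 0.0445) or 3 DAG (adjusted p = 0.0164). *PaERF115-like* had 1 step that passed the adjusted p, a fall of 0.59 ± 0.18 in rootstock from 14 to 28 DAG (adjusted p = 0.0138). In scion the same step was -0.46 ± 0.18 (adjusted p = 0.0664), or -0.52 (adjusted p = 0.0384) with library size as the only scaling, and the other 6 steps lay between -0.13 and 0.29.

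All 4 steps that passed lay below the fold threshold, and 3 of them did not pass in every setting. With all libraries thinned to the smallest total, the adjusted p was 0.221 for the scion step of *PaPAT1-like* from 1 to 3 DAG and 0.142 for its rootstock step from 3 to 7 DAG. The first had adjusted p values of 0.0947 without replicate 3 of scion at 1 DAG, 0.141 without replicate 1 of scion at 3 DAG and 0.0542 in DESeq2. The second had adjusted p values of 0.153 without replicate 2 of rootstock at 3 DAG and 0.111 without replicate 2 of rootstock at 7 DAG. The fall of *PaERF115-like* had adjusted p values of 0.0933 without replicate 3 of rootstock at 14 DAG and 0.0674 without replicate 2 of rootstock at 28 DAG. The rise of *PaPAT1-like* in rootstock from 7 to 14 DAG passed with each library left out (adjusted p 0.00531 to 0.0269). By the adjusted p alone, 31%, 17.3%, 12.1% and 21.8% of all genes changed at the 4 successive steps in scion, and 44.4%, 21.9%, 18.9% and 20.7% in rootstock.

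Intact plants served to show what changed without a graft. *PaPAT1-like* was higher in intact tissue at 28 DAG than at day 0 by 0.88 ± 0.19 on the log2 scale (adjusted p = 2.26e-04), and the values of the 4 earlier days were 0.31, 0.40, -0.01 and 0.48 with adjusted p values of 0.0543 or more. The value at 14 DAG passed with library size as the only scaling (adjusted p = 0.0182), without the filter on low counts (adjusted p = 0.0499) and without replicate 2 of day 0 (adjusted p = 0.0392). The rise at 28 DAG was past the fold threshold with library size as the only scaling (1.07) and without replicate 2 of day 0 (1.01). For *PaERF115-like* the log2 differences from day 0 had standard errors of 0.84 to 1.47, since each intact group held 1 to 14 reads, and their adjusted p values were 0.32 to 0.907. By the adjusted p alone, 1.99%, 12.3%, 40.4%, 41.5% and 42.8% of all genes differed from day 0 at 1, 3, 7, 14 and 28 DAG.

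The difference from intact tissue was also compared between the first and the last day. For *PaPAT1-like* in rootstock it was larger at 28 than at 1 DAG by 0.77 ± 0.25 on the log2 scale (adjusted p = 0.0119), but 0.43 (adjusted p = 0.31) with all libraries thinned to the smallest total. In scion the change was 0.22 ± 0.25 (adjusted p = 0.512). For *PaERF115-like* the difference was lower at 28 than at 1 DAG by -1.81 ± 0.84 in scion (adjusted p = 0.0887) and -1.65 ± 0.84 in rootstock (adjusted p = 0.11), neither passing the test, while DESeq2 called the scion change (-1.91, adjusted p = 0.0452). The scion change was also called without replicate 3 of intact at 1 DAG (-2.59), without replicate 1 of scion at 1 DAG (-1.99) and without replicate 2 of intact at 28 DAG (-2.29). The rootstock change was called without replicate 2 of intact at 28 DAG (-2.14). By the adjusted p alone, 38.4% of all genes changed in scion in this comparison and 44.8% in rootstock.

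Ordered by mean level, the groups of the 2 genes ran differently. For *PaERF115-like* the order from the top was rootstock at 14, 7 and 1 DAG (521 ± 91.5, 437 ± 26.7 and 401 ± 102 normalized reads, SD, n = 3), scion at 14, 7, 3 and 1 DAG (379.9 ± 47.2, 366 ± 2.85, 359 ± 32.1 and 358 ± 90.9), rootstock at 3 and 28 DAG (354 ± 43.4 and 348 ± 47.3) and scion at 28 DAG (279.6 ± 24.5). All 6 intact groups followed, from 4.50 ± 4.19 at 28 DAG to 0.50 ± 0.87 at 7 DAG. Of the 15 pairs of neighbours in this order, 13 overlapped between libraries. The 2 gaps lay on either side of scion at 28 DAG.

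For *PaPAT1-like* the order was a gradual one, and each of the 15 neighbouring pairs overlapped. Scion at 14 DAG (164 ± 39.4), rootstock at 14 DAG (159 ± 12.3), scion at 28 DAG (148 ± 17.3) and rootstock at 28 DAG (133 ± 5.23) came first. Scion at 7 and 3 DAG (132 ± 34.3 and 119.9 ± 18.3), rootstock at 7 DAG (102 ± 8.87) and scion at 1 DAG (87.9 ± 8.94) stood above intact at 28 DAG (85.4 ± 13.1). Rootstock at 3 DAG (70.5 ± 9.63) and 1 DAG (54.4 ± 7.22) stood among the other intact groups, whose means ran from 46.3 ± 6.72 at day 0 to 65.5 ± 4.27 at 14 DAG.

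**Figure D3:**
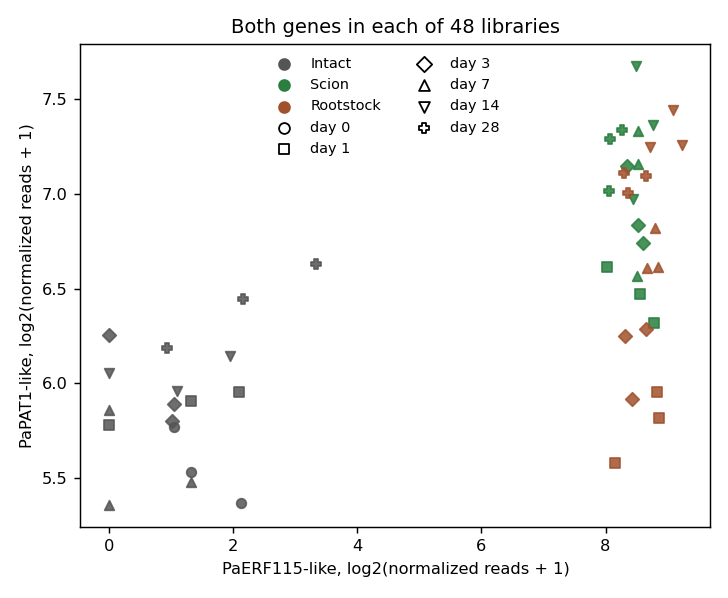
*PaPAT1-like* against *PaERF115-like* in each of the 48 libraries, both as log2(normalized reads + 1), with tissue by colour and day by marker. The horizontal axis splits intact from grafted libraries with none between, and within the grafted libraries *PaPAT1-like* ranges from 46.7 to 204 normalized reads while *PaERF115-like* ranges from 259 to 599.

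Since grafted and intact libraries form 2 separate clusters, the relation between both genes was examined within each tissue only. Pearson's r of log2(normalized reads + 1) was 0.35 over the 18 intact libraries (Spearman's rho 0.21), -0.16 over the 15 scion libraries (rho -0.22) and 0.41 over the 15 rootstock libraries (rho 0.35). Over all 48 libraries, after the mean of each group was subtracted, r was 0.07 and rho 0.01. None of the 4 relations passed: the two-sided permutation p values of r were 0.16, 0.565, 0.134 and 0.653, or 0.321, 0.653, 0.321 and 0.653 after Benjamini-Hochberg adjustment, and those of rho were 0.4, 0.433, 0.208 and 0.945, or 0.578, 0.578, 0.578 and 0.945. Without the 2 libraries farthest from the median of *PaERF115-like*, r was -0.14 in intact, -0.40 in scion, 0.09 in rootstock and -0.08 for the deviations. No library batch is given in the labels, so none could be separated.

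The genes with the most similar profiles were found over the 16 group means. The 5 closest to *PaERF115-like* had r of 0.992 (MA_927067g0010), 0.99 (MA_40048g0010), 0.986 (MA_1587211g0010), 0.983 (MA_4481564g0010) and 0.98 (MA_2515401g0010), and each was called higher in 10 of 10 comparisons with intact. The last is annotated as an inorganic phosphate transporter 1-4-like, a membrane protein that takes up phosphate, and the other 4 carry no annotation in the tables used. MA_4481564g0010, for example, had a mean of 0.84 normalized reads in intact, 257 in scion and 239 in rootstock libraries. Over these points r mostly separates grafted from intact groups, and none of the 5 was among the closest 5 without the intact groups or with Spearman's rho.

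The 5 genes closest to *PaPAT1-like* were MA_10208485g0010, annotated as a leucine-rich repeat receptor-like kinase (r = 0.962), MA_10430005g0010, annotated as Lipase 1 (r = 0.961), and MA_9739622g0010, MA_503753g0010 and MA_8292402g0010 without annotation (r = 0.958, 0.957 and 0.957). They were called higher in 6, 8, 7, 9 and 9 of the 10 comparisons. Since they were chosen over group means that include the intact groups, these calls are partly built in. None of the 5 was among the closest 5 without the intact groups. Neither gene of the pair was among the 5 closest to the other. Their r was 0.719, which placed *PaPAT1-like* at rank 3143 of 38435 in the list of *PaERF115-like* and *PaERF115-like* at rank 1942 in that of *PaPAT1-like*.

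Identifiers that share a scaffold were used to look for neighbours on the assembly. No other model shares the scaffold name of *PaERF115-like*. *PaPAT1-like* shares its scaffold with MA_10426489g0010, which held 2 reads in all, both in 1 rootstock library, and was not tested.

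Other AP2/ERF genes named by the study were set beside *PaERF115-like*, in a list that need not hold the whole family. Of 21 listed genes, taken from the annotation of transcription factors in the study's supplementary tables, 13 were tested, and in scion 7, 7, 5, 6 and 4 of them were called higher and 2, 0, 1, 1 and 1 lower than intact at 1, 3, 7, 14 and 28 DAG. In rootstock 9, 9, 5, 7 and 4 were called higher and 2, 1, 0, 0 and 0 lower. Over the 10 comparisons, 7.27% to 13.8% of all genes tested were called higher and 1.96% to 16.5% lower. The median log2 fold change of the 13 lay between 0.39 and 2.10 in the 10 comparisons, beside medians of -0.05 to 0.07 over all genes tested. Its genes appear in the study's tables of genes that changed in these libraries, that changed under auxin or cytokinin in other samples, or that were grouped by their profiles here, so its direction is not independent evidence. The listed genes that were not tested had too few reads. The list also holds *PaWIND1-like* (MA_98464g0010), and MA_121578g0010, MA_3758g0010, MA_922309g0010 and MA_94228g0010 are also in the study's yellow module.

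The fold change of *PaERF115-like* exceeded that of each of the 13 in 8 of the 10 comparisons, the exceptions being 1 DAG, where 1 listed gene was higher in scion and 2 were higher in rootstock. The 3 listed genes with the most calls were MA_27309g0010, annotated as ethylene-responsive transcription factor 5-like (called higher in 10 of 10, log2 fold changes of 2.30 to 9.33), MA_113446g0010, annotated as ERF017-like (9 of 10, 0.89 to 5.02), and MA_203191g0010, annotated as an ethylene-responsive element binding factor (9 of 10, 0.32 to 3.34).

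**Figure D4:**
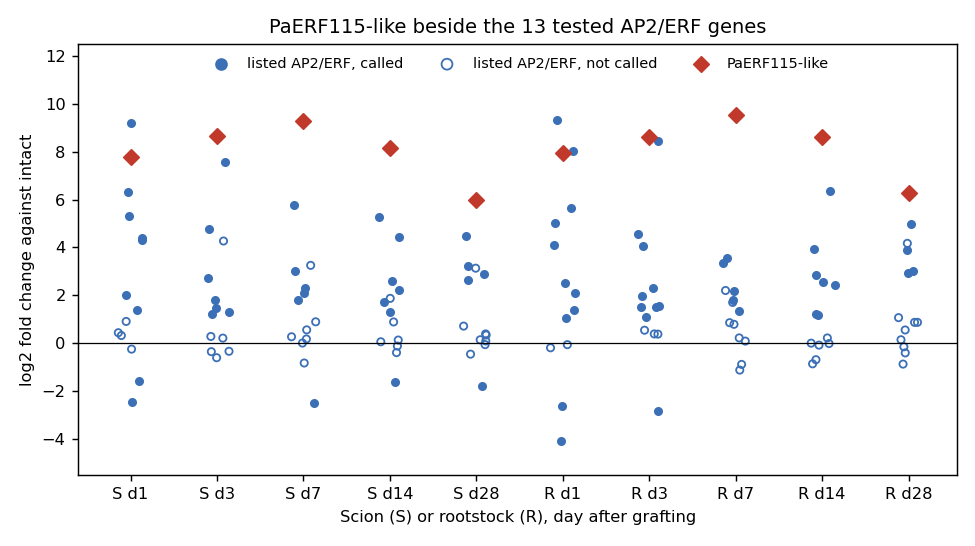
Fitted log2 fold change against intact of the 13 listed AP2/ERF genes that were tested (circles, filled where called) and of *PaERF115-like* (diamonds) in the 10 comparisons. *PaERF115-like* lies above all 13 except at 1 DAG, where 1 gene in scion and 2 in rootstock lie higher.

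For *PaPAT1-like* the family comparison was small. The 2 other GRAS genes of the list were MA_10430319g0010 (annotated as scarecrow 28), called higher in 1 of 10 comparisons (1.12, scion at 14 DAG) and lower in 1 (-1.24, rootstock at 1 DAG), and MA_10435549g0050 (annotated as scarecrow 1), called higher in 1 (1.04, rootstock at 1 DAG). In rootstock at 1 DAG, where *PaPAT1-like* was at -0.12, the 2 genes thus changed in opposite directions. Of all genes tested, 13.8% were called higher and 16.5% lower in that comparison, and 11% were called higher in scion at 14 DAG. MA_10430319g0010 is also in the study's yellow module, so its likeness to *PaPAT1-like* is not independent evidence.

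The study's yellow module, a group of transcription factors that it clustered by their profiles in these libraries, holds *PaPAT1-like* itself and 63 other genes. A likeness between them is thus built in, and the module gives no independent evidence. Of the 59 other genes that were tested, 28, 41, 44, 39 and 25 were called higher and 6, 0, 0, 0 and 0 lower in scion at 1, 3, 7, 14 and 28 DAG. In rootstock 14, 21, 31, 38 and 25 were called higher and 17, 2, 0, 0 and 0 lower. At 1 DAG 11.4% of all genes were called higher and 11.3% lower in scion, and 13.8% higher and 16.5% lower in rootstock. The median log2 fold change of these genes was 1.27, 1.60, 1.55, 1.47 and 0.92 in scion from 1 to 28 DAG, where *PaPAT1-like* had 0.58, 0.99, 1.54, 1.37 and 0.80. In rootstock it was 0.00, 0.71, 1.23, 1.27 and 0.98, where *PaPAT1-like* had -0.12, 0.23, 1.14, 1.31 and 0.65. The 3 genes with the most calls were MA_10431811g0010, annotated as FER-LIKE IRON DEFICIENCY-INDUCED TRANSCRIPTION FACTOR-like (log2 fold changes of 4.27 to 11.04), MA_75731g0010, annotated as LOB domain-containing 40-like (1.41 to 6.27), and MA_18975g0010 without annotation (1.37 to 4.46), each called higher in 10 of 10.

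Markers of the cell types in a hypocotyl piece moved as well, and their part in the results was not tested. All 6 markers had reads in 47 or 48 of the 48 libraries. The summed level of the 3 vascular markers, *PaAPL-like* for phloem and *PaVND4-like* and *PaPRX66-like* for xylem, ranged from 375 to 984 normalized reads in intact, 262 to 1716 in scion and 85.3 to 845 in rootstock libraries. At 1 DAG it was 262 to 338 in scion, 106 to 141 in rootstock and 666 to 984 in intact libraries. The 3 markers did not move alike on that day. The log2 fold changes of *PaAPL-like*, *PaVND4-like* and *PaPRX66-like* against intact were 0.19, -0.997 and -2.09 in scion, and only the last was called lower. In rootstock they were -0.47, -2.81 and -3.72, and the last 2 were called lower. The division marker *PaCDKB2;2-like* carries the study's own name, while its annotation is cyclin-dependent kinase B1-1. It ranged from 279 to 951 in intact, 305 to 1130 in scion and 242 to 1215 in rootstock libraries. At 1 DAG it lay at 242 to 355 in grafted libraries and at 555 to 639 in intact ones.

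The 2 wound and callus markers, *PaWOX13-like* and *PaWIND1-like*, whose *Arabidopsis* relatives promote callus, summed to 10.6 to 74.8 normalized reads in intact, 63.9 to 599 in scion and 56.8 to 387 in rootstock libraries. *PaWOX13-like* and *PaWIND1-like* were called higher in scion from 1 to 14 DAG, with log2 fold changes of 3.30 and 5.31 at 1 DAG and 2.27 and 4.43 at 14 DAG. At 28 DAG neither was called on either side, with 0.97 and 0.09 in scion and 0.46 and 0.87 in rootstock. *PaERF115-like* was called on that day on both sides, at 5.98 and 6.29. Of the 6 markers, 2, 4, 5, 5 and 2 were called higher and 1, 0, 0, 0 and 0 lower in scion from 1 to 28 DAG, and 2, 2, 3, 4 and 1 higher and 3, 2, 0, 0 and 0 lower in rootstock. These counts stand beside 7.27% to 13.8% of all genes called higher and 1.96% to 16.5% called lower.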

How the data were processed

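The study sequenced stranded, poly(A)-selected RNA as read pairs. Per its methods, rRNA reads were filtered out by SortMeRNA, the rest was filtered by fastp, STAR mapped the pairs to the spruce genome (version 1.0) and HTSeq assigned them to genes with regard to strand. The table deposited by the authors holds the resulting raw counts, without scaling, for 70736 gene models in 48 libraries. No gene positions, promoters or protein sequences were used here.

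Tests were run in edgeR 4.0.16 (R 4.3.3). After filterByExpr with a minimum count of 10, which left 38436 genes, and TMM scaling, a single robust quasi-likelihood model of the 16 groups gave 30 contrasts. P values were adjusted by Benjamini-Hochberg over all genes of a contrast. Normalized reads are counts divided by size factors from DESeq2 1.42.0, with a pseudocount of 1 on the log2 scale. The standard error of a log2 fold change was derived from its F statistic (size of the change divided by the root of F), and can understate the error for groups with few reads. Replicates are separate pools of plants in the study's methods. Ratios of reads have exact 95% counting intervals. Correlations of both genes used 100000 permutations, within groups for the deviations. The code for the tests was checked on simulated counts.

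The same replicate number did not pair intact with grafted libraries (30 pairs, r of -0.09 to 0.11). Scion and rootstock of the same number deviated together in 3 of 5 days (each pair above 0.1 at 7, 14 and 28 DAG), which comes from the data, since the labels state no pairing.

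Alternatives were DESeq2, RLE scaling, library size alone, no filter, a filter of 1 CPM in 6 libraries and thinning to the smallest total. Others were replicate blocks over all groups or within days, fits of only the 2 groups compared, and each of 48 libraries left out. The block within days was fitted to scion and rootstock libraries without the intact ones. Genes named beside the pair were the 5 closest profiles by Pearson's r over group means, models on the same scaffold, the 3 AP2/ERF and yellow module genes with the most calls, all listed GRAS genes and 6 markers. The genes and lists were chosen with earlier results of these data known.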

Additional observations from a re-analysis of the deposited data

Results flagged for a closer look

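*PaPAT1-like* differed between the 2 sides of the graft at 1 DAG and 3 DAG. Its level was higher in scion than in rootstock by 0.70 and 0.76 on the log2 scale in edgeR (adjusted p = 0.00273 and 5.15e-04), in 3 of 3 scion libraries against each rootstock library of the day. With each library of these groups left out in turn, the values were 0.60 to 0.79 at 1 DAG and 0.63 to 0.85 at 3 DAG, and each passed the adjusted p. Of all genes, 24.9% at 1 DAG and 29.9% at 3 DAG differed between scion and rootstock by the adjusted p alone.

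The difference of *PaPAT1-like* between rootstock and intact tissue was larger at 28 DAG than at 1 DAG by 0.77 on the log2 scale (adjusted p = 0.0119). It was 0.43 (adjusted p = 0.31) in libraries thinned to the smallest total, and 0.65 to 0.87 with each library left out. Of all genes, 44.8% passed the adjusted p in this comparison.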

How the results depend on the processing

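Under each alternative run, with each library left out in turn included, *PaERF115-like* was called higher in all 10 comparisons with intact tissue. *PaPAT1-like* was called in 4 of them under DESeq2, RLE scaling, the stricter filter, the replicate block and fits of only 2 groups, and in 5 with library size alone (1.15 in scion at 3 DAG), no filter (1.01) or thinning (1.06). Library size alone moved the median of all genes by up to 0.19 on the log2 scale (scion against rootstock at 7 DAG, from 0.02 to 0.21), and its values include that shift; it also put intact *PaPAT1-like* at 28 DAG past the threshold (1.07). DESeq2 called the change of the scion-intact difference of *PaERF115-like* from 1 to 28 DAG (-1.91). Thinning gave *PaPAT1-like* 0.12 in rootstock against intact at 1 DAG and -0.18 for the scion-intact change, and *PaERF115-like* -0.056 in scion against rootstock at 3 DAG; without the filter *PaERF115-like* had -0.011 for scion from 3 to 7 DAG. Intact *PaPAT1-like* at 7 DAG against day 0 (-0.0055) was 0.011 under RLE, 0.0101 under DESeq2, 0.093 with library size alone and 0.024 without the filter. These values changed sign close to 0, none was called, and the cause was not tested.

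With libraries left out in turn, the ranges over which a call changed were 0.86 to 1.12 for *PaPAT1-like* in scion at 3 DAG and 0.77 to 1.01 in intact at 28 DAG, and for *PaERF115-like* -2.59 to -0.88 for the scion-intact and -2.43 to -0.73 for the rootstock-intact change. Signs differed for *PaPAT1-like* in intact at 7 DAG (-0.17 to 0.13), scion against rootstock at 14 DAG (-0.12 to 0.23) and scion from 3 to 7 (-0.045 to 0.30) and 14 to 28 DAG (-0.35 to 0.00072). For *PaERF115-like* they differed in intact at 1 DAG (-1.20 to 0.21), scion against rootstock at 1 DAG (-0.35 to 0.029) and 3 DAG (-0.042 to 0.14), and scion from 1 to 3 (-0.12 to 0.23), 3 to 7 (-0.045 to 0.078) and 7 to 14 DAG (-0.031 to 0.14).

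The replicate block over all groups changed no call (*PaPAT1-like* 4 and *PaERF115-like* 10 of 10 called). The block within days, in a fit without intact libraries, changed only the 2 results given above with it, by the adjusted p. The 5 closest profiles depend on the measure: 0 of the 5 for *PaERF115-like* and 1 of the 5 for *PaPAT1-like* stayed with Spearman's rho, and 0 and 0 without the intact groups. Depth limits *PaERF115-like* in intact tissue, where 1 to 14 reads stand behind a group.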

Other observations

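The level of both genes relative to each other was measured within each grafted library. Intact libraries are left out, since the pseudocount would largely set the value where *PaERF115-like* has so few reads. The difference of *PaPAT1-like* minus *PaERF115-like* in log2(normalized reads + 1) was -1.99 ± 0.53, -1.58 ± 0.34, -1.50 ± 0.39, -1.23 ± 0.36 and -0.91 ± 0.13 in scion at 1, 3, 7, 14 and 28 DAG (SD, n = 3), and -2.83 ± 0.24, -2.31 ± 0.23, -2.09 ± 0.13, -1.69 ± 0.25 and -1.37 ± 0.18 in rootstock. Transcript lengths were not used, so only the difference of this value between groups can be read, not its sign. At each day its mean was lower in rootstock than in scion. This was computed after the values had been seen, and was not tested.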
